A study of Mus musculus with 19 samples.

Results

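Inhibition in the neocortex runs mostly through GABA-A receptors, and 7 genes that encode their subunits (Gabra2, Gabra3, Gabra4, Gabra5, Gabrb1, Gabrb2 and Gabrd) were followed through the depth of the mouse primary somatosensory cortex (S1). These members are a listed set taken by gene symbol. They belong to 18 GABA-A receptor subunit genes among the 24130 Ensembl genes in the expression tables. All 7 members had intervals narrow enough to enter the tests, as did 11409 genes in all, the widest 95% interval being at most 50% of the gene's mean level.

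Polyadenylated RNA came from C57BL/6 males (C57BL/6J in the study's methods), 56 days old, for which the labels name no mutation or treatment, and whose S1 was cut by hand into 6 adjoining segments and sequenced as 7 libraries. Segment A held mostly layers 1 to 3, B layer 4, C and D the upper and lower part of layer 5, E layer 6 and F layer 6b. Libraries A, C, D, E and F each pooled 8 mice and have no replicate, while B1 and B2 each pooled 4 littermates and are the only replicate pair. By their labels, segments hold mostly, and not purely, the layer named. The study's methods draw every segment from the same 8 mice, B1 and B2 being their litters, so the libraries share animals while the tests treat them as independent. The series has 19 samples, and its 12 dorsal and lateral cortex samples were not analysed here.

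A GABA-A receptor is a chloride channel of 5 subunits, usually alpha and beta subunits with a gamma or a delta subunit. GABA binds between alpha and beta, and the alpha type together with gamma or delta sets where the receptor sits and how long its currents last. Receptors with gamma cluster at synapses, where they carry fast, phasic inhibition. The delta subunit pairs in the forebrain mainly with alpha 4 and carries tonic inhibition outside synapses, and alpha 5 is also known for receptors outside synapses, in cortex and most of all in the hippocampus.

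Levels are FPKM, fragments per kilobase of transcript scaled to the mapped fragments of a library. This measure divides by length, so genes of unlike length can be set side by side, but it is not corrected for GC content. The depth that the deposited coverage implies ran from 31300000 fragments in A to 74900000 in B2, and the widest 95% interval of a member, as a share of its level in the same library, ran from 7.56% (Gabra3) to 15.7% (Gabra5, in A). These intervals hold the error within a library and none of the variation between mice. In bulk tissue, fewer cells of a type and less RNA per cell cannot be told apart.

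The segments were checked with layer markers. Of 10 markers, 9 were tested and all 9 passed the trend test described below, which 43.5% of all genes passed. A pass marks a change with depth. Whether each marker peaked in the layer it is known for was not tested. Among the 9, Cux2 of the upper layers had 37.9 FPKM in A and 2.82 in F. Ctgf of layer 6b had 1.24 in A and 167 in F. Other profiles were less simple. Bcl11b was highest in F, with 19.51 FPKM against 14.5 in D. Tbr1, highest in E (73.48), had 41.78 in B1 and 26.68 in B2 against 30.41 in C. Cplx3, highest in F (164.3), had 9.244 in A against 2.288 in C. Markers of other cells also differed along this axis. The summed FPKM of 8 oligodendrocyte markers ran from 326 in A to 12510 in F. That of 7 interneuron markers was lowest in A (299) and highest in D (571). Among these 7, Gad1, Gad2, Slc32a1 and Lhx6 were also lowest in A. Sst was lowest in B2 (154 FPKM), and Pvalb and Vip were lowest in F (16.5 and 5.32). The sum of 5 meningeal markers was 19.7 in A against 1.96 to 3.29 in the other libraries. None of the 5 had intervals narrow enough to be tested. Among them, Lum was not highest in A (0.1643 FPKM) but in D (0.2845). Mitochondrial genes took 21.8% of all FPKM in A, 5.03% in F and between 7.68% (E) and 9.79% (C) in C, D and E. The litters of B differed, with 7.76% in B1 and 18.2% in B2. None of these markers was at 0 in any library, and their part in the results on the subunits was not tested.

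Gabra5 and Gabrb2, an alpha and a beta subunit, spanned the widest ranges across segments among the members, and for this reason the stretch before a transcription start of each is shown. Both come from the RefSeq promoter windows of build GRCm38.p6, on another build than the mm9 positions of the expression tables, and neither overlaps an annotated exon. The Gabra5 window is chr7:57510060-57510309 on the minus strand and the first of 3 Gabrb2 windows is chr11:42420190-42420439 on the plus strand, each printed 5′ to 3′ for 250 bases ending at the start. Capitals mark matches, on either strand, to 5 motifs that were searched: the TATA box (TATAAA), the GC box (GGGCGG), the CCAAT box (CCAAT), the cAMP response element (TGACGTCA) and the EGR site (GCGTGGGCG), of which the last shares letters with the GC box.
Gabra5: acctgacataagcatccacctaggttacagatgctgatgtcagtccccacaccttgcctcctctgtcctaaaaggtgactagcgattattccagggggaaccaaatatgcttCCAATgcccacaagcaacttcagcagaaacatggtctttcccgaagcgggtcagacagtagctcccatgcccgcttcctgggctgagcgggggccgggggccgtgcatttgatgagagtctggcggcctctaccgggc
Gabrb2: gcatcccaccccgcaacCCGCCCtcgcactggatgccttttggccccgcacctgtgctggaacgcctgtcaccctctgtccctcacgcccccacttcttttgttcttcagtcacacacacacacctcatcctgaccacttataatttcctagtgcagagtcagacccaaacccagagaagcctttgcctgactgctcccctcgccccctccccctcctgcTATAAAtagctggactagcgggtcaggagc
The Gabra5 window held 1 match, to the CCAAT box, which is found in 33.9% of all 32851 windows of this length. The Gabrb2 window held a TATA box near its end and a GC box on the other strand, matched in 12.4% and 32.7% of all windows. Guanine and cytosine made up 56.4% of the Gabra5 window and 58.8% of the Gabrb2 window, against a median of 52.4%. Of the other members, Gabra2, Gabra3, Gabra4 and Gabrb1 have windows in the same tables.

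Among the alpha subunits, Gabra5 (ENSMUSG00000055078, mm9 chromosome 7, 64663060 to 64765379) encodes alpha 5. Its level was 5.56 FPKM in A, 12.2 and 14.1 in B1 and B2, 23.3 and 24.9 in C and D, and 24.3 and 34.4 in E and F. Every deep library (C to F) stood above every upper library (A, B1 and B2), and F was the highest. The 95% intervals of C, D and E overlapped each other, those of all other pairs of segments did not, and F was 6.18-fold above A, a range over segments wider than that of 92.6% of the genes with a narrow interval.

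Gabra3 (ENSMUSG00000031343, mm9 chromosome X, 69678020 to 69901525) encodes alpha 3, a subunit of synaptic receptors. Its level was 17.2 FPKM in A, 24.2 and 29.1 in B1 and B2, 38.1 and 46.4 in C and D, and 44.5 and 25.1 in E and F. It was highest in lower layer 5 and layer 6, D and E having overlapping intervals. In F it came back to the level of B1, with overlapping intervals, so upper and deep libraries were not separated.

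Gabra4 (ENSMUSG00000029211, mm9 chromosome 5, 71960973 to 72049547) encodes alpha 4, the usual partner of delta in the forebrain. Its level was 9.17 FPKM in A, 21.2 and 22.8 in B1 and B2, 19.98 and 21.7 in C and D, and 23.6 and 14.7 in E and F. The 5 libraries from B1 to E lay close together, within 19.98 to 23.6 FPKM, and both ends of the cortex were lower. A was 2.58-fold below E.

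Gabra2 (ENSMUSG00000000560, mm9 chromosome 5, 71352296 to 71487088) encodes alpha 2, known from synapses on the axon initial segment. Its level was 14.3 FPKM in A, 21.7 and 25.6 in B1 and B2, 22.6 and 20.6 in C and D, and 18.3 and 14.2 in E and F. The level was highest in B2, while B1 had intervals overlapping those of C and D. A and F were lowest, and their intervals overlapped. Its range over segments, 1.67-fold, exceeded that of 26.6% of genes.

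Among the beta subunits, Gabrb2 (ENSMUSG00000007653, mm9 chromosome 11, 42233259 to 42442530) encodes beta 2. Its level was 9.66 FPKM in A, 43.2 and 38.1 in B1 and B2, 45.5 and 50.3 in C and D, and 54.0 and 36.4 in E and F. A alone stood far below the rest, 5.59-fold under E, a range wider than that of 91.2% of genes. All 20 pairs of libraries from different segments had intervals apart, as in 7.66% of genes.

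Gabrb1 (ENSMUSG00000029212, mm9 chromosome 5, 72091171 to 72529628) encodes beta 1. Its level was 19.1 FPKM in A, 15.0 and 23.6 in B1 and B2, 15.4 and 14.4 in C and D, and 18.2 and 21.6 in E and F. The lowest level was in D, with overlapping intervals in C and B1, and the litters differed more than most segments did. B2 was 1.57-fold above B1, and only 1 of the 20 pairs of libraries from different segments differed by more than that.

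The delta subunit has 1 gene, Gabrd (ENSMUSG00000029054, mm9 chromosome 4, 154759089 to 154772221). Its level was 73.6 FPKM in A, 49.7 and 49.0 in B1 and B2, 33.8 and 30.8 in C and D, and 28.6 and 21.0 in E and F. The level was lower in each deeper segment, and all upper libraries stood above all deep ones. B1 and B2 had overlapping intervals, all 20 pairs from different segments had intervals apart, as for Gabrb2, and A was 3.51-fold above F.

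**Figure D1:**
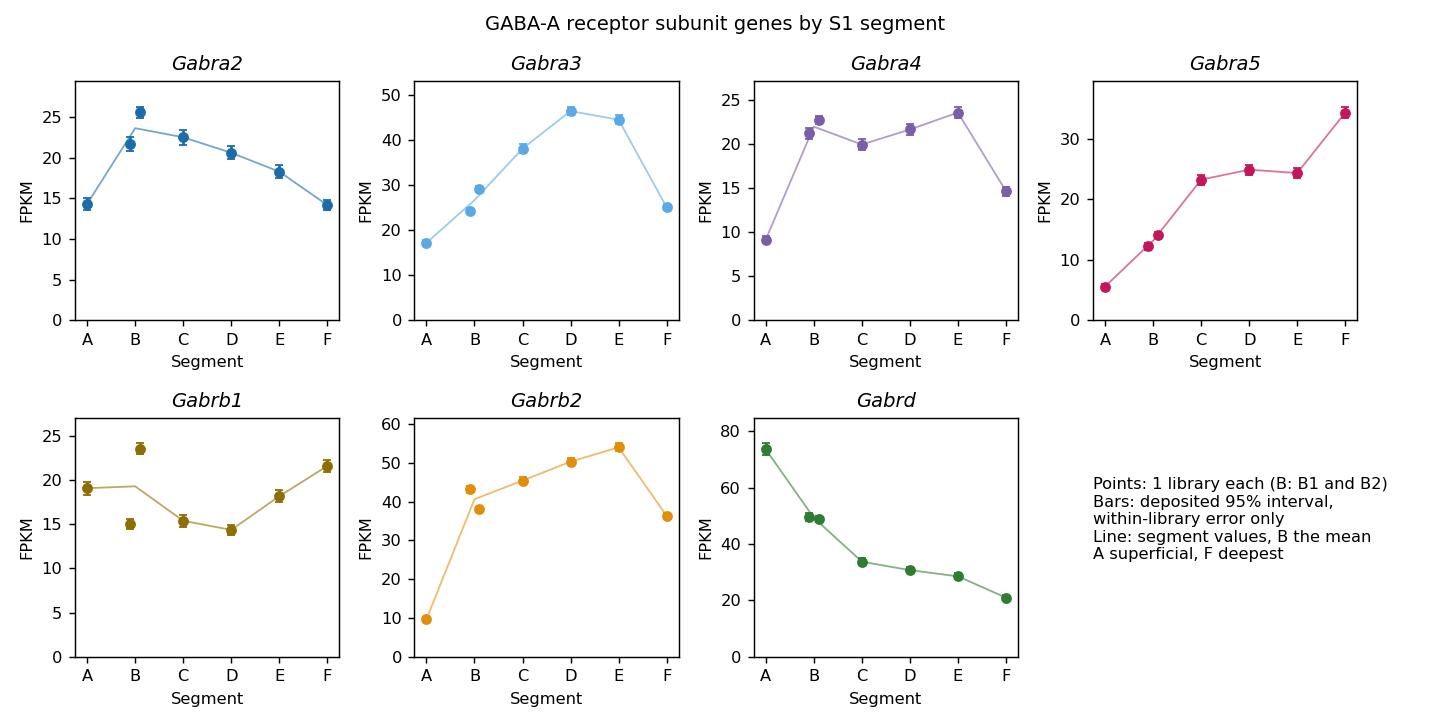
Level of the 7 members (vertical axis, FPKM, starting at 0) in each S1 library, by segment from superficial (A) to deep (F). Points are single libraries, bars the deposited 95% intervals and lines join segments, through the average of both litters in B. Gabrd runs from 73.6 FPKM in A down to 21.0 in F and Gabra5 from 5.56 up to 34.4.

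On levels not corrected for GC content, the order of the members changed with depth. In A, Gabrd was first, at 73.6 FPKM, Gabrb1 came next at 19.1, and Gabra5 was last. In B1 and B2, Gabrd was still first, with Gabrb2 next. From C to F, Gabrb2 was first, and Gabrd was the third in C, D and E and the fifth in F. Gabra5 was last in A, B1 and B2, the fourth in C, D and E and the second in F. Neighbours in this order whose intervals overlapped were Gabrb2 and Gabra4 in A, Gabra2 and Gabra4 in B1, Gabrb1 and Gabra4 in B2, Gabra5 and Gabra2 in C, Gabra4 and Gabra2 in D, Gabra5 with Gabra4 and Gabra2 with Gabrb1 in E, and Gabrb1 with Gabrd and Gabra4 with Gabra2 in F.

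Whether a level changed along the depth of the cortex was asked with a limma fit of a linear and a quadratic term of segment position on log2(FPKM + 0.1), across all 11409 genes, a call being an adjusted p under 0.05 for both terms together. By this test 5 of 7 members changed with depth, beside 43.5% of all genes tested. Of the 5, the linear term of Gabra3, Gabra4, Gabra5 and Gabrb2 was upward and that of Gabrd was downward. Of all genes tested, 35.5% passed with an upward linear term and 8.04% passed with a downward one. The signs of Gabra3 and Gabra4 changed under GC correction, which also rescales the libraries. That of Gabra4 also changed under another scaling and without A. The median linear change over the members was 0.42 on the log2 scale, against 0.47 over all genes tested.

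Gabrd fell by 1.64 on the log2 scale from A to F in the linear term (SE 0.20, limma adjusted p = 0.00482). Gabra5 rose by 2.21 (SE 0.29, limma adjusted p = 0.00486). These members had the 2 smallest adjusted p-values of the set. Gabrb2 rose by 1.38 (SE 0.39, limma adjusted p = 0.0127) and Gabra3 by 0.79 (SE 0.22, limma adjusted p = 0.00884), and their fitted curves peaked at D. Gabra4 had a linear change of 0.42 (SE 0.31, limma adjusted p = 0.0457) with a fitted peak likewise at D. Gabra2, at -0.26 (SE 0.23, limma adjusted p = 0.0652), and Gabrb1, at 0.04 (SE 0.28, limma adjusted p = 0.389), did not pass.

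The scale of the libraries and the single library A bear on these calls. The log2 ratio of F to A had a median of 0.51 over all genes, and dividing by median-of-ratios factors, from 0.766 in A to 1.15 in F, took this shift out. The share of upward terms among all called genes then went from 81.5% to 52.6%. On that scale 33.0% of all genes and 5 of 7 members passed. The linear change was -2.15 for Gabrd, 1.71 for Gabra5, 0.87 for Gabrb2 and 0.28 (SE 0.24) for Gabra3. For these, the limma adjusted p of both terms together was between 0.00514 and 0.0471. Gabra2 fell by 0.76 and passed (limma adjusted p = 0.0351), while Gabra4, at -0.09, changed sign and did not (limma adjusted p = 0.111). The GC correction took out, in each library, the median deviation of genes of like GC content. It thus took out the shift of scale as well, and its effect is not that of GC content alone. With GC content corrected in this way, 31.2% of genes and 4 of 7 members passed, and 49.1% of the called genes were upward. Gabra5 rose by 1.35, Gabrd fell by 1.63, Gabra2 by 1.18 and Gabrb1 by 0.90, while Gabrb2 (0.52), Gabra3 (-0.10) and Gabra4 (-0.44) did not pass. Without A, 1 of 7 members passed, Gabrd, beside 10.1% of all genes, and Gabra5 kept a linear change of 1.81 (limma adjusted p = 0.0580). Gabrb2 then had 0.46 (limma adjusted p = 0.222) and Gabra3 1.07 (limma adjusted p = 0.0533). Without F, 32.4% of all genes and 4 of 7 members passed, these being Gabra3, Gabra5, Gabrb2 and Gabrd. Their linear changes were 1.23 (SE 0.34), 1.41 (SE 0.33), 0.92 (SE 0.68) and -1.25 (SE 0.31). A pass is for both terms together and not for the linear change alone. Without A or F, the linear change extends the fitted curve to the segment left out. It is then not a change between libraries in the fit. From B1 and B2 to F, the log2 change was 0.05 and -0.21 for Gabra3 and -0.25 and -0.07 for Gabrb2. For Gabra5 it was 1.49 and 1.29.

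**Figure D2:**
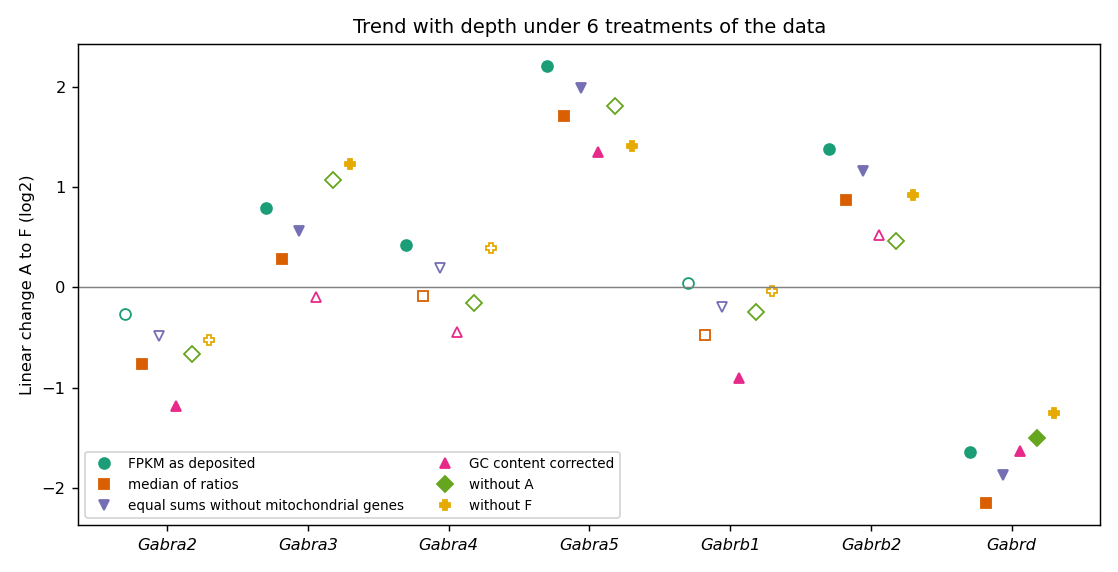
Linear change from A to F (vertical axis, log2) of each member under 6 treatments of the data. Symbols are filled where the limma trend test passed and open where it did not. Without A or F, the change extends the fitted curve to the segment left out. Gabrd stays below 0 and Gabra5 above 0 throughout, and Gabra4 runs from 0.42 on the deposited scale to -0.44 with GC content corrected.

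The litters B1 and B2 give the only measure of variation between pools of mice, which cannot be told apart from differences in preparing and sequencing the libraries. Their intervals were apart for 6 of 7 members, the exception being Gabrd, and for 66.4% of all genes tested, so that non-overlap of intervals marks differences between pools of one segment as well. Between A and F, 6 of 7 members had intervals apart, beside 85.2% of all genes, with Gabra2 the exception. Another measure counts the pairs of libraries from different segments that differed by more than B1 from B2. It was 20 of 20 for Gabrd, as in 6.05% of all genes, and 17 for Gabra5. The count was 16 each for Gabra3, Gabra4 and Gabrb2, 14 for Gabra2 and 1 for Gabrb1, against a median of 11 for all genes. It depends on 1 replicate pair per gene. The log2 ratio of B2 to B1 was -0.02 in Gabrd, larger in size than in 3.67% of genes, and 0.65 in Gabrb1, larger than in 81.0%. Across genes, the log2 ratio of B2 to B1 was related to GC content (Spearman's rho = -0.559 over 10627 genes, which are not independent replicates), and so was that of F to A (rho = -0.333). The members' own GC content ran from 38.8% in Gabra2 to 58.3% in Gabrd around a median of 51.0% for all genes.

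Upper segments (A, B1 and B2) were then compared with deep segments (C, D, E and F), again with limma on log2(FPKM + 0.1). None of the 7 members passed the adjusted threshold, as 0.447% of all genes did. At an unadjusted p under 0.05 there were 3 members, Gabra3, Gabra5 and Gabrd, beside 33.7% of all genes. Gabra5 was 1.41 higher on the log2 scale in deep segments (SE 0.33, limma adjusted p = 0.0859). Gabrd was lower in deep segments, at -1.0 (SE 0.24, limma adjusted p = 0.0859). Upper and deep libraries did not overlap for Gabra5, with deep higher as in 31.6% of all genes, and for Gabrd, with upper higher as in 4.72%. The other 5 members overlapped, with log2 differences, deep minus upper, from -0.14 (Gabrb1) to 0.87 (Gabrb2).

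Shares within a subunit class do not depend on the scale of a library. They describe the mix of subunits in each library, but no share was corrected for GC content. Each gene's FPKM was divided by the summed FPKM of all listed genes of its class. The alpha sum was 80.2 FPKM in A and between 147 and 227 in the other libraries, and the beta sum 49.0 in A and between 101 and 132 elsewhere. The sum of gamma and delta was 96.5 in A, 96.8 in F and between 136 and 144 elsewhere.

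Gabrd made up 76.3% ± 1.27 (SE from the deposited intervals) of the summed gamma and delta FPKM in A, 35.8% and 34.4% in B1 and B2, 23.5% and 22.6% in C and D, and 21.0% and 21.7% in E and F. The drop was steepest between A and layer 4, and the deep libraries lay within 3 percentage points of each other. From A to B1 and B2, Gabrd went from 73.6 to 49.7 and 49.0 FPKM while the class sum rose from 96.5 to 138.8 and 142.2. The drop in share there thus also holds a rise of the other genes of the class. The mean share was 48.8% ± 23.8 (SD, n = 3) in upper and 22.2% ± 1.10 (SD, n = 4) in deep libraries. Upper libraries are A and both litters of B, so layer 4 enters with both its litters. Both SDs hold differences between segments and are not a spread of replicates alone. Upper and deep shares did not overlap, and an exact two-sided permutation test gave p = 0.0571, the smallest that 3 against 4 libraries allow, or 0.133 adjusted over the 7 shares.

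Gabra5 made up 6.93% of the alpha FPKM in A, 6.77% and 7.21% in B1 and B2, 10.6% and 10.98% in C and D, and 11.8% and 23.4% in E and F. This share stayed level through the upper segments, although the Gabra5 level rose from 5.56 FPKM in A to 12.2 and 14.1 in B1 and B2. The alpha sum rose there too, from 80.2 to 180.6 and 195.4. The share was higher in layers 5 and 6 and highest by far in layer 6b. From E to F the alpha sum went from 206 to 147, so that step also holds a fall of the other alpha genes. Deep libraries exceeded upper ones by 7.24 percentage points without overlap (exact permutation p = 0.0571, adjusted 0.133). Gabra2 went the other way, from 17.9% in A, 12.03% in B1 and 13.1% in B2 to 8.89% to 10.3% in the deep libraries. The difference was -4.85 points, also without overlap (exact permutation p = 0.0571, adjusted 0.133). Its level in A was 14.3 FPKM, below the 21.7 and 25.6 in B1 and B2, so its high share in A goes with the low alpha sum there.

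Gabra3 had between 13.4% (B1) and 21.6% (E) of the alpha FPKM, and A, at 21.4%, was level with E. Gabra4 kept between 9.11% (C) and 11.8% (B1). For neither did upper and deep shares separate (exact permutation p = 0.343 and 0.114). Among beta subunits, Gabrb1 took 39.0% in A, 14.8% in B1, 22.2% in B2 and 11.2% to 16.4% in the deep libraries. Gabrb2 took 19.7% in A, 42.6% and 35.8% in B1 and B2, 42.9% and 39.3% in C and D, and 41.0% and 27.6% in E and F. The share of Gabrb2 was lowest and that of Gabrb1 highest in A, where the beta sum was lowest. The Gabrb1 level was 19.1 FPKM in A, below the 23.6 in B2 and the 21.6 in F. The shares of upper and deep libraries overlapped (exact permutation p = 0.457 for Gabrb2 and 0.114 for Gabrb1).

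**Figure D3:**
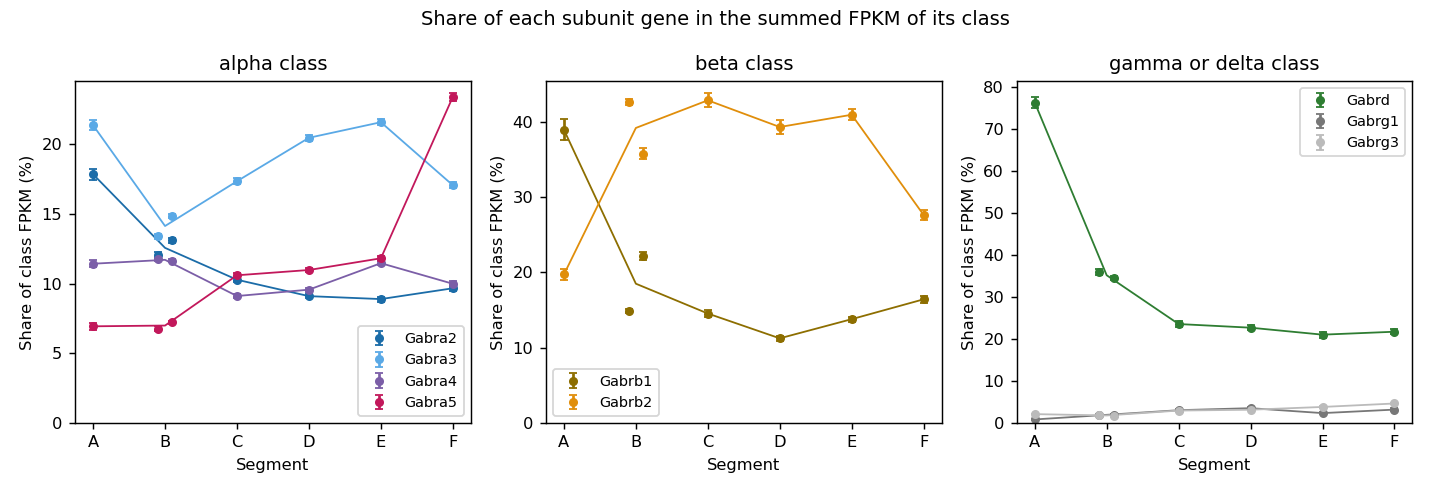
Share of each gene in the summed FPKM of its class (vertical axis, percent, starting at 0) by S1 segment, for the alpha, beta, and gamma or delta classes. Points are libraries with SE bars from the deposited intervals, and lines join segments, through the average of both litters in B. Gabrd runs from 76.3% in A to 21.7% in F and Gabra5 from 6.93% to 23.4%, and shares left to reach 100% belong to other listed genes of the class.

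Ratios between members on the length-normalized scale, also not corrected for GC content, gave the same contrasts. Gabrd to Gabra4, the pair known to assemble into tonic receptors, stood at 8.03 ± 0.233 (SE) in A, 2.34 and 2.15 in B1 and B2, 1.69 and 1.42 in C and D, and 1.21 and 1.43 in E and F. The ratio of Gabra5 to Gabrd rose from 0.0756 in A through 0.246 and 0.288 in B1 and B2 to 0.689, 0.810 and 0.853 in C, D and E and to 1.64 in F, which was the single library with more Gabra5 than Gabrd. Gabrb2 to Gabrb1 was 0.506 in A, 2.87 in B1, 1.61 in B2, and between 1.68 (F) and 3.502 (D) from C to F. The litters of B thus spanned much of the range found outside A.

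**Figure D4:**
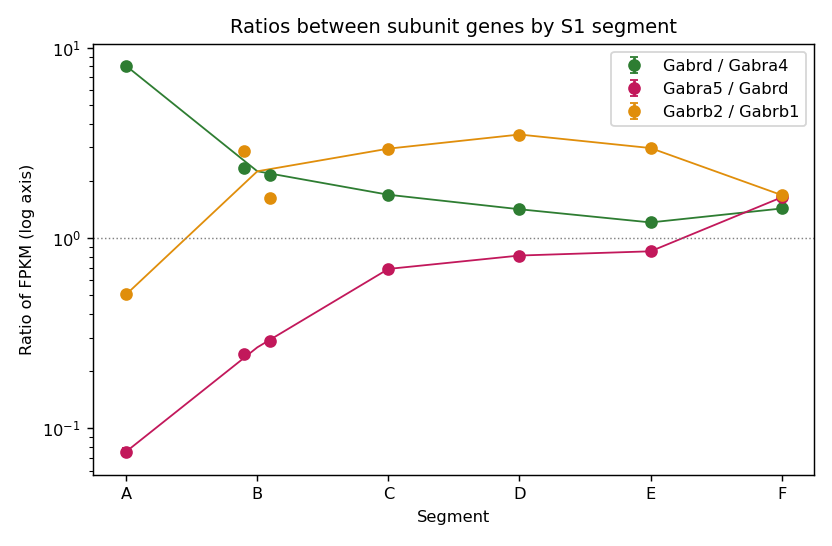
Ratio of FPKM of 3 pairs of members (vertical axis, log scale, dotted line at 1) by S1 segment, points being libraries with SE bars from the deposited intervals, often smaller than the points. Gabrd to Gabra4 is 8.03 in A and 1.43 in F, Gabra5 to Gabrd is 0.0756 in A and 1.64 in F, and Gabrb2 to Gabrb1 is under 1 in A alone.

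Across the 6 segments, with the litters of B averaged, the members' log2 levels followed each other to different degrees, given as a description over 6 points that share the libraries' scale. Gabra5 and Gabrd ran opposite (Pearson's r = -0.98), and Gabra4 ran with Gabrb2 (0.95), as did Gabra3 (0.87). Gabra2 and Gabrd gave a value near 0 (0.02), and Gabrb1 had negative values with all alpha members, from -0.69 with Gabra3 to -0.16 with Gabra5.

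Among the 10144 genes whose mean reached 1 FPKM, the pair of genes most like each member over the 6 segments was named in the same way. For Gabrd these were Tmem74b (r = 0.997) and Adgrb1 (0.994), an adhesion receptor of the brain. For Gabra5 they were Spcs2 (1.00 to 2 decimals), a signal peptidase subunit, and Arl6ip1 (0.999), a protein of the endoplasmic reticulum. For Gabra3 they were Lsamp (0.997), a neuronal adhesion molecule, and Ssx2ip (0.993). Gabrb2 had Tab3 and Eid2 (both 0.999), Gabra4 had C130071C03Rik (0.996) and Ttc26 (0.995), Gabra2 had the transcription factor Hlf (0.991) and Dab2ip (0.991), and Gabrb1 had Trim39 (0.988) and Myo9b (0.9751). With so many genes and 6 points, high values are common.

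Several subunit genes lie beside each other in the genome, by their mm9 positions. On chromosome 5, Gabra2 and Gabra4 are 473.9 kb apart and Gabra4 and Gabrb1 41.6 kb, yet their levels differed in pattern, Gabra4 being lowest in A and Gabrb1 lowest in D. On chromosome 7, Gabra5 lies 20.5 kb from Gabrg3. Gabrg3, a gamma subunit gene outside the set, had 1.99 FPKM in A, 2.51 and 2.38 in B1 and B2, 4.18 and 4.23 in C and D, and 5.13 and 4.45 in E and F. It rose by 1.31 in the linear term (limma adjusted p = 0.00881). Gabrg1, 118.4 kb from Gabra2, was between 0.768 FPKM (A) and 4.73 (D) and rose by 1.36 (limma adjusted p = 0.00652). The other 6 of the 8 further subunit genes listed with these, of the epsilon, pi, theta and rho types, had no level precise enough to test.

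Each member had 1 Ensembl transcript that matched GENCODE M21 by identifier, so no change of isoform was measured. That transcript held 100% of the gene's FPKM in every library, except for Gabrd in A, where it held 96.1%. The rest of Gabrd in A was in no matched transcript. Its read coverage was lowest for Gabra5 in A, at 17.9-fold, and highest for Gabrd in B2, at 378-fold.

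Genes that place the receptor, make its ligand or set its chloride gradient were counted as listed groups. Of 20 genes for anchoring and trafficking of the receptor, all tested, 7 rose with depth by the limma trend test and none fell, beside 35.5% and 8.04% of all genes. All 7 of 7 tested genes for GABA synthesis, transport and breakdown passed, beside 43.5% of all genes. Their linear changes ran from 0.01 to 1.16, and each of the 7 was lowest in the single library A. The summed FPKM of all 8 genes listed in this group was lowest in A, at 117, and highest in D, at 331, and so peaked in layer 5 and not at the deepest segment. Of 4 genes for chloride transport, Slc12a2, which carries chloride into cells, rose with depth by 3.22 and Slc4a3, an anion exchanger, fell by 1.65 (limma adjusted p = 0.00209 and 0.00760), named after their values were seen. Slc12a5, at -0.20, and Clcn2, at -0.27, did not pass (limma adjusted p = 0.152 and 0.316). Neither of the 2 GABA-B receptor genes passed. No gene of these groups passed the test of upper against deep segments, as 0.447% of all genes did.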

How the data were processed

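Per the labels and the study's methods, polyadenylated RNA was sequenced at both ends (50 nt mapped, longer reads for part of F) and mapped by the authors to mm9 with TopHat 1.0.13. Expression of Ensembl release 57 models was estimated with Cufflinks 0.8.3. The deposited tables give FPKM per gene and transcript with 95% intervals. For transcripts, the deposited tables also give a fraction of the locus, fold read coverage (not scaled for depth) and model length. Rows of one gene were summed, and genes missing from a library were set to 0. The tables of de novo models were not used.

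Symbols and GC content were matched by identifier to GENCODE M21. Genes were tested where the widest interval was at most 50% of the mean (11409 of 24130). The tests were limma 3.58.1 (R 4.3.3) on log2(FPKM + 0.1), with Benjamini-Hochberg adjustment at 0.05 and 4 (trend) or 5 (upper against deep) residual degrees of freedom, non-overlap of intervals, and exact two-sided permutation tests (scipy 1.17.1) of class shares, whose errors were propagated from the intervals. The code was tested on simulated data. With 1 library in 5 of 6 segments, p-values rest on scatter about a curve or within arms, and replicates are pools of mice. As FPKM are not counts, no count test was run. Pseudocount, filter, scaling, GC content and single libraries were varied.

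The rule named all 7 members, other subunit genes of at least 1 FPKM, the 2 genes most like each member, and any listed gene passing upper against deep. Of the other subunit genes, Gabrg1 and Gabrg3 are given. The members and gene lists were chosen with earlier results of these data known. Some further subunit genes enter the class sums and are not reported here.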

Additional observations from a re-analysis of the deposited data

How the results depend on the processing

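Under 15 of 18 alternatives between 4 and 6 members changed with depth, against 5 in the report. Beside them, 25.4% (no filter) to 57.9% (without B1) of all genes tested passed, against 43.5% in the report. The members passing were not always the same, being Gabra2, Gabra5, Gabrb1 and Gabrd with GC content corrected. A linear term alone left 2 members (Gabra5 and Gabrd) and 2132 genes, against 4968 genes in the report. Taking the 6 segments as separate groups in limma left 0 members and 0 genes, with 3 members and 2111 genes at an unadjusted p under 0.05, and with B1 and B2 alone supplying the error. Leaving out 1 library at a time gave 1 to 5 members and 1147 to 6611 genes. The lowest values came without A, and without C 3295 genes passed. Gabra4 changed sign with median-of-ratios scaling (-0.09), with GC content corrected (-0.44) and without A (-0.16), and Gabra3 changed sign with GC content corrected (-0.10), and the cause was not tested. With single libraries left out, Gabra4 ran from -0.16 to 0.56. Gabra5 and Gabrd kept their direction under all 18 alternatives, and passed under 16 and 17. For upper against deep segments, no member passed under any of 17 alternatives, while genes passing ran from 10 (without E) to 86 (without C) when 1 library was left out, with 30 without B1, 13 without D and 20 without F, and were 31 with B1 and B2 averaged, against 51 in the report. Between A and F, 5 members and 8126 genes had intervals apart with intervals widened 2 times. With median-of-ratios scaling, 5 members and 9119 genes did, against 6 members and 9725 of 11409 genes in the report. The differences in class shares kept their direction under every alternative run, but not their size. None of these alternatives corrected GC content. With the listed members alone in the denominator they were -10.7 points for Gabra2, -4.76 for Gabra4, 12 for Gabra5 and 16 for Gabrb2 (exact permutation p = 0.114), and without B1 they were 1 for Gabra3 and 9.95 for Gabrb2. Without B1 or B2 the smallest possible p was 0.133. The isoform alternatives were not run, since each member has 1 matched transcript. No paired analysis was possible because only segment B has a second replicate. With 1 library in 5 of 6 segments, variation between pools of mice was measured in layer 4 alone. There it cannot be told apart from differences in preparing and sequencing B1 and B2.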
